A study of Mus musculus with 6 samples.

Results

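Pir, Osgin1, Entpd5, Fbxo2, Rab15 and Fetub are 6 genes that were higher in mouse skin carrying an always active Nrf2 and that lie outside the familiar glutathione, thioredoxin and detoxification families. They were chosen by the very difference between the groups described here, so that difference is a description and supports nothing by itself. Every array probe set annotated with 1 of these symbols alone was kept, which gave 11 probe sets of 45037 tested. They stand for 6 of the 18193 genes that the annotation names singly. Entpd5 has 6 probe sets and each of the other genes has 1.

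Whole back skin of 6 female mice was profiled at postnatal day 2.5, 1 Affymetrix 3' expression array per animal, all animals from 1 litter. Their strain is given as FVB/N/C57BL/6 mixed. The 3 caNrf2 mice (K5cre-caNrf2, labelled tg/tg) combine Cre recombinase under the keratin 5 promoter, which is active in the basal layer of the epidermis, with a constitutively active Nrf2. The 3 control mice (K5cre-wt) are labelled tg/wt, which is read here as carrying the Cre transgene without caNrf2. The sample descriptions call both groups "weak", a word the labels do not explain. RNA came from all skin layers, while keratin 5 marks keratinocytes, and in such a mixture fewer cells of a type and less RNA per cell cannot be told apart.

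Nrf2 is a transcription factor that Keap1 marks for degradation until oxidants or electrophiles stop it; it then pairs with small Maf proteins on antioxidant response elements in DNA. Glutathione and detoxification enzymes are its best known targets. The 6 genes here do other work. Pir encodes pirin, an iron-binding protein of the nucleus that associates with the NF-kappa-B co-regulator Bcl3. Osgin1 encodes oxidative stress induced growth inhibitor 1. Entpd5 encodes an enzyme of the endoplasmic reticulum that splits UDP and thereby helps newly made glycoproteins fold. Fbxo2 encodes an F-box protein that binds high-mannose glycans and hands misfolded glycoproteins to an SCF ubiquitin ligase. Rab15 encodes a small GTPase of early and recycling endosomes, and Fetub encodes fetuin-B, a secreted inhibitor of astacin proteases made mainly by the liver.

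The promoters were read for the core of the antioxidant response element, since the genes were higher together. The RefSeq promoter windows of assembly GRCm38.p6 run from 250 bases before to 50 bases after an annotated start, and all 6 genes matched, with 10 windows in all because Rab15 has 4 and Fetub 2. Both strands were searched for TGACNNNGC and for the looser TGANNNNGC, which includes every match of the first. TGACNNNGC was found in 2 of the 10 windows, in Pir and in the second Fetub window, against 12.4% of all 32851 windows. TGANNNNGC was found in 5 of the 10 windows, of 4 genes, against 41.3% of all windows. Counted by gene, 13.99% of 27025 genes hold TGACNNNGC and 45.0% hold TGANNNNGC in at least 1 window. A match describes letters and is no evidence of binding. The 3 windows below are shown because they hold the Pir, Osgin1 and downstream Fetub matches; capitals mark each match as it reads on the gene's strand.
Pir, chrX:164269181-164269480, plus strand: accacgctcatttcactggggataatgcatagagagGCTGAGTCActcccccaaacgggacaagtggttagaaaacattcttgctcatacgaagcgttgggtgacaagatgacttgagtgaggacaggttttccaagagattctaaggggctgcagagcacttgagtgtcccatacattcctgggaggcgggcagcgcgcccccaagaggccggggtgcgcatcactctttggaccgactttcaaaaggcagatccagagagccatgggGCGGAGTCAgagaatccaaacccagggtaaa
Osgin1, chr8:119436897-119437196, plus strand: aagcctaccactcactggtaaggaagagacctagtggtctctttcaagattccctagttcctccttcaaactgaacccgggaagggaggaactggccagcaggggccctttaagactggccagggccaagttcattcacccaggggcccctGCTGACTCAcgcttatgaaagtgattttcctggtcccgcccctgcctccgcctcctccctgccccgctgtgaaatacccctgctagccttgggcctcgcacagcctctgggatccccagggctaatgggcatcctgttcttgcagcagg
Fetub, second window, chr16:22919972-22920271, plus strand: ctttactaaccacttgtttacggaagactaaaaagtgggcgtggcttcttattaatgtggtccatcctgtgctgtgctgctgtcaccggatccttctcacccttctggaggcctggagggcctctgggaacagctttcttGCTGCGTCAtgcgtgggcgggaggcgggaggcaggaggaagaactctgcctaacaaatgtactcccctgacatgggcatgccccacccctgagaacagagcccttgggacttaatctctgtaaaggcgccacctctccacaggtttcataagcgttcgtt

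All 3 of these windows carry their matches on the opposite strand. In Pir they read TGACTCAGC, at -214 to -206 from the annotated start, and TGACTCCGC, at 20 to 28. In Osgin1 the match reads TGAGTCAGC, at -99 to -91, and fits only the looser pattern. In the second Fetub window it reads TGACGCAGC, at -110 to -102. The first Fetub window holds TGATGGCGC at -55 to -47 and 1 of the Rab15 windows holds TGATGCTGC at -134 to -126, each on the gene's strand and each fitting only the looser pattern. The single windows of Entpd5 and Fbxo2 hold neither pattern.

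The skin label was checked on keratinocyte markers. The 8 markers had a median level of 13.53 (log2), none was called, and their summed intensity was 89952 to 93265 on control and 90396 to 94315 on caNrf2 arrays. Array medians were 80.7 to 81.9 intensity units, and 3 Y-linked genes, which are silent in females, read 7.69 to 15.4. The difference was fitted with limma over all 45037 probe sets, and a probe set is termed called below a Benjamini-Hochberg adjusted p of 0.05. By this rule 102 probe sets (0.226%) were higher and 6 (0.0133%) were lower in caNrf2 skin. Of the 11 probe sets of the 6 genes, 8 were called higher and 10 had every caNrf2 array above every control array, as did 6.9% of all probe sets, and nothing is read from these counts because the genes were chosen on the same contrast. Next to the threshold, Entpd5 probe set 1417383_at lay just inside (adjusted p = 0.0442), and Rab15 (adjusted p = 0.0623) and Entpd5 probe set 1451765_a_at (adjusted p = 0.0664) lay just outside in the limma fit. With 1 probe set per gene, the brightest, 63 of 18193 genes were called higher. All 6 genes were among them, Rab15 included, and nothing is read from that either.

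Pir differed most. Its intensity was 89.75, 94.62 and 95.01 on control arrays 1 to 3 and 387.7, 447.4 and 439.0 on caNrf2 arrays 1 to 3. The groups lay far apart, and the lowest caNrf2 array was 4.08 times the highest control array. The log2 difference was 2.19 ± 0.08 (SE, n = 3 per group), a 4.55-fold level with a 95% interval of 4.02 to 5.16. The Bcl3 and NF-kappa-B genes with which pirin acts, and the NFI factors, which also bind pirin, were listed with it. None of their 29 probe sets, from 9 measured genes, was called in either direction, and their median log2 difference was -0.01, as it was over all genes. The smallest p among them belonged to Nfix and Nfib, which encode NFI factors (0.17 ± 0.08 and 0.15 ± 0.07 for the probe sets concerned, limma adjusted p = 0.597 and 0.608). Other probe sets of both genes lay closer to 0.

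Osgin1 was the most variable of the 6 within the control group. It measured 82.0, 97.1 and 111.1 on control arrays 1 to 3 and 228.7, 255.5 and 189.2 on caNrf2 arrays 1 to 3. The caNrf2 arrays were all higher, though the third was much lower than the second. The log2 difference was 1.21 ± 0.13 (SE, n = 3 per group), or 2.32-fold (95% interval 1.90 to 2.83), with an SD of 0.22 in either group. Its paralog Osgin2 was not called on any of 3 probe sets. The brightest of them differed by 0.17 ± 0.10 (limma adjusted p = 0.648) and the others by 0.01 and -0.09.

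**Figure D1:**
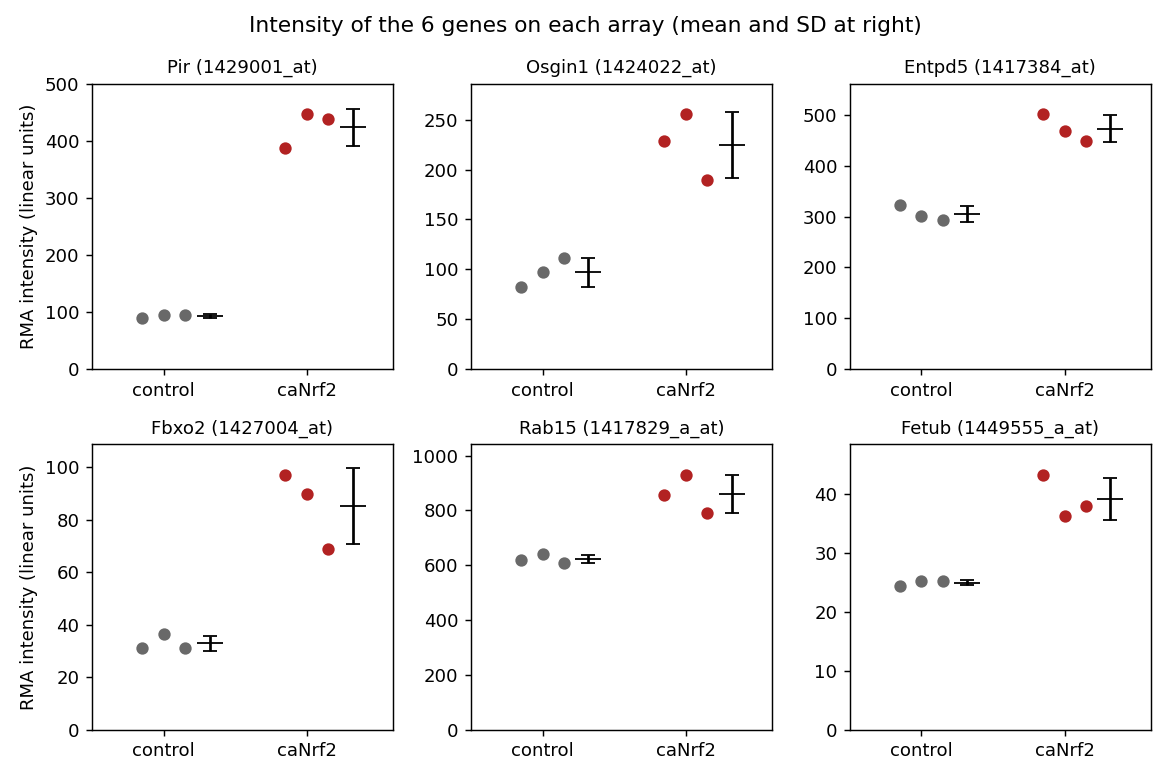
RMA intensity (linear units, axes from 0) of the 6 genes on 3 control (grey) and 3 caNrf2 (red) arrays, with the group mean and SD at the right of each group and the brightest probe set for Entpd5. In every panel the caNrf2 points lie above the control points, from 1.38-fold for Rab15 to 4.55-fold for Pir.

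Entpd5 and Fbxo2 both act on glycoproteins of the endoplasmic reticulum, one on folding and the other on disposal. On its brightest probe set, 1417384_at, Entpd5 measured 322.9, 302.0 and 292.3 in controls 1 to 3 and 501.5, 469.3 and 448.4 in caNrf2 mice 1 to 3. The groups did not overlap, and the log2 difference was 0.63 ± 0.08 (SE, n = 3 per group), 1.55-fold (95% interval 1.37 to 1.75). Of its 6 probe sets, 5 separated the groups, with folds from 1.39 to 1.68 and a median of 1.45. The largest was that of 1417382_at, with 254.2, 234.5 and 209.6 in controls and 378.9, 399.3 and 392 in caNrf2 skin. The sixth, 1458677_at, was dim and its groups overlapped, with 18.7 to 21.4 in controls and 18.2 to 23.2 in caNrf2 skin (log2 difference 0.05, 95% interval -0.17 to 0.28). These probe sets share 1 gene and the same arrays and are no replicates of each other.

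**Figure D2:**
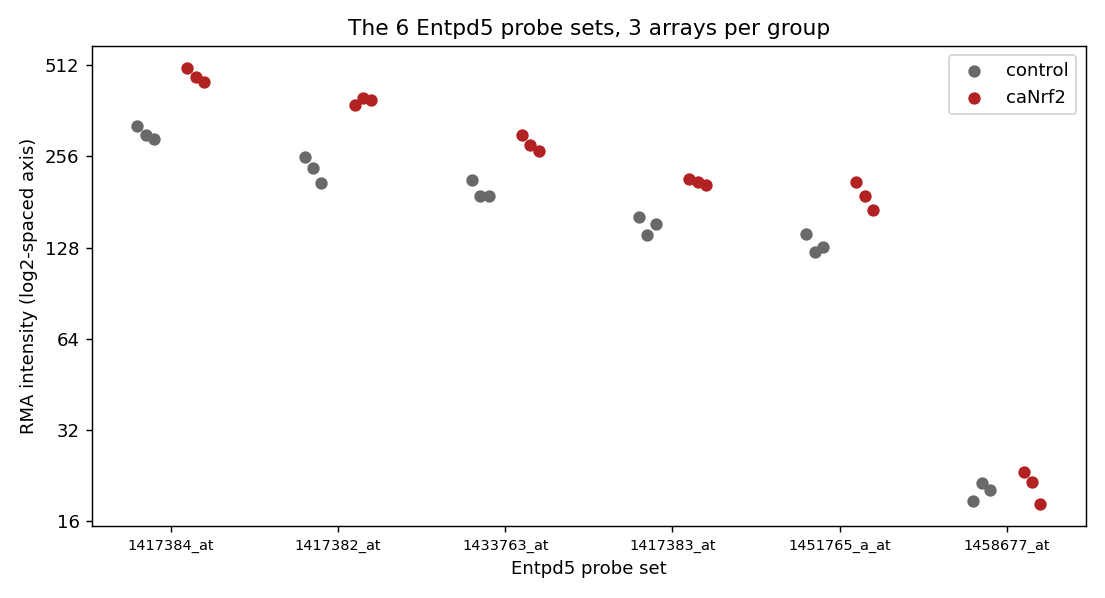
RMA intensity of the 6 Entpd5 probe sets on a log2-spaced axis, 3 control (grey) and 3 caNrf2 (red) arrays each. In 5 probe sets every caNrf2 point is above every control point; in 1458677_at, between 18.2 and 23.2 units, the groups overlap.

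Fbxo2 was dim in control skin. It measured 31.3, 36.4 and 31.2 on control arrays 1 to 3 and 97.1, 89.9 and 69.0 on caNrf2 arrays 1 to 3. All caNrf2 arrays were well above the controls, the third least so. The log2 difference was 1.36 ± 0.12 (SE, n = 3 per group), or 2.57-fold (95% interval 2.13 to 3.10). Adding 32 units before taking logs, which weighs dim signals less, lowered it to 0.85.

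Relatives and partners of Entpd5 and Fbxo2 held no called probe set in either direction. Among 6 other measured NTPDase genes of the ENTPD family (12 probe sets) the median log2 difference was 0.02, and the smallest p belonged to Entpd1, the surface ATP-splitting enzyme CD39, at -0.15 ± 0.08 (limma adjusted p = 0.616), followed by Entpd7 at 0.13 ± 0.08 (limma adjusted p = 0.658). The brightest Entpd1 probe set went the other way, at 0.05 ± 0.08. The other glycan-binding F-box genes, 4 in number with 7 probe sets, had a median of -0.02. Fbxo44 and Fbxo6, which lie beside Fbxo2 on chromosome 4, differed by 0.11 ± 0.13 and -0.03 ± 0.10 on their brighter probe sets. The SCF core genes (4 genes, 5 probe sets) had a median of 0.08, with Rbx1 at 0.11 ± 0.09 (limma adjusted p = 0.746) and Cul1 at 0.10 ± 0.08 (limma adjusted p = 0.753). For 21 genes of glycoprotein folding and disposal, which include calnexin, calreticulin and the Edem and Derlin proteins, the 47 probe sets had 0 called and the genes a median of 0.04, with 17 of 21 above 0 by small amounts. At an unadjusted p under 0.05 there were 5 of these 47 probe sets (10.6%), a share near the 8.86% of all probe sets. The smallest p was that of an Edem2 probe set at -0.32 ± 0.12 (limma adjusted p = 0.487), while the brighter Edem2 probe set differed by 0.09. A probe set of Uggt2, a relative of the folding sensor that re-glucosylates glycoproteins, came next at 0.20 ± 0.08 (limma adjusted p = 0.491).

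Rab15 differed least. It measured 618.1, 640.0 and 609.4 on control arrays 1 to 3 and 855.4, 929.7 and 791.8 on caNrf2 arrays 1 to 3. The groups did not overlap, and the lowest caNrf2 array was 1.24 times the highest control array. The log2 difference was 0.46 ± 0.08 (SE, n = 3 per group), 1.38-fold (95% interval 1.22 to 1.56). Its probe set, like that of Fetub, carries the suffix a, which Affymetrix gives to sets that can detect several transcripts of a gene.

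Relatives of Rab15 had no called probe set among 24, from 10 genes of the Rab8, Rab10, Rab13 and Rab3 group, with a median log2 difference of 0.02. Rab3a, a GTPase of regulated secretion, had the smallest p, with -0.22 ± 0.07 and -0.22 ± 0.08 on its probe sets (limma adjusted p = 0.421 and 0.485). Rab8a differed by 0.02 on its brightest probe set and by -0.24 ± 0.10 on another (limma adjusted p = 0.524). Recycling endosome genes, 13 with 27 probe sets, had 0 called and a median of 0.02. Among them Tfrc, the transferrin receptor that brings iron into cells and is a classic recycling cargo, had 3 probe sets that differed by 0.37 to 0.40, each missing the threshold (limma adjusted p = 0.318 to 0.363), although on all 3 every caNrf2 array was above every control array. Rab11fip1, a Rab11 effector, differed by 0.29 ± 0.14 on the probe set with its smallest p (limma adjusted p = 0.597).

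Fetub was close to the dim end of the arrays. It measured 24.5, 25.2 and 25.2 on control arrays 1 to 3 and 43.3, 36.4 and 37.9 on caNrf2 arrays 1 to 3. The controls were nearly identical and all caNrf2 arrays were higher. The log2 difference was 0.65 ± 0.08 (SE, n = 3 per group), 1.57-fold (95% interval 1.38 to 1.78). It was reduced to 0.32 by adding 32 units before taking logs, and the gene was then no longer called; the call was also lost without control array 1 or control array 2. Because fetuin-B is chiefly a liver product, hepatocyte markers are given beside it. The summed intensity of 7 such markers was 462 to 479 on control arrays and 416 to 817 on caNrf2 arrays, 1 of the 7, Fga, was at the level of the Y-linked genes, and none was called. The high value came from albumin, Alb, which measured 499.8 on caNrf2 array 3 against 125.4 to 175.3 on the other 5 arrays. Its part in the Fetub difference was not tested; on caNrf2 array 3 Fetub lay between its values on the other caNrf2 arrays.

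The fetuin and kininogen relatives of Fetub, 3 measured genes with 4 probe sets, held no called one, and their median log2 difference was 0.02. All 3 are also its close neighbours on chromosome 16. Ahsg, which encodes fetuin-A, differed by 0.02 ± 0.11, Hrg, which encodes histidine-rich glycoprotein, by 0.05 ± 0.08, and kininogen, Kng1, by -0.19 ± 0.11 (limma adjusted p = 0.636) on its brighter probe set. The astacin proteases that fetuin-B inhibits were dim and not called. Mep1a and Mep1b, which encode meprin subunits, differed by -0.23 ± 0.11 and -0.16 ± 0.08 (limma adjusted p = 0.598 and 0.604), and the egg protease Astl by -0.14 ± 0.09.

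**Figure D3:**
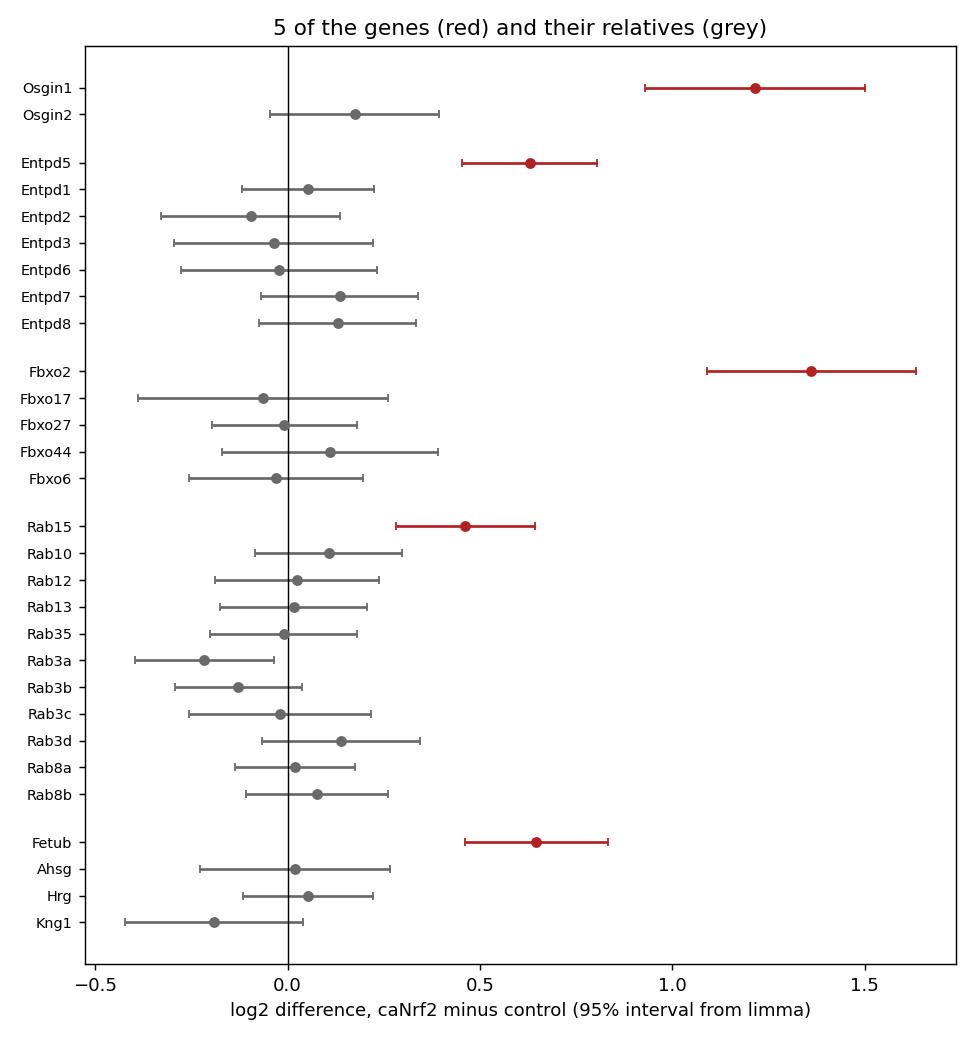
Log2 difference, caNrf2 minus control, with the 95% interval from limma, for 5 of the genes (red) and for their measured relatives (grey), 1 probe set per gene, the brightest, n = 3 arrays per group. The red points lie at 0.46 to 1.36 and the 24 grey ones between -0.22 and 0.17.

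In all, 24 measured relatives with 50 probe sets gave 0 called, and 74 genes of the relatives, partners and pathways together, with 162 probe sets, gave 0 called in either direction by limma. Over all probe sets 0.226% were called higher and 0.0133% lower, so 0 called in lists of this size is near that share. Nothing is read from these counts. At an unadjusted p under 0.05 the 74 genes held 11 probe sets, or 6.79%, against 8.86% of all probe sets. As a yardstick, 13 of 16 probe sets from 8 standard Nrf2 targets were called higher and none lower, with a median log2 difference of 1.06. The called genes were Nqo1, Gsta4, Srxn1, Slc7a11, Gclm, Gclc and Txnrd1. Slc7a11 was called only on its dimmer probe set, whose control mean of 12.9 was at the level of the Y-linked genes. Its brighter probe set, which enters the median, was not called (0.91 ± 0.17, limma adjusted p = 0.0812). Hmox1, haem oxygenase, was the 1 gene of these 8 with no called probe set (0.24 ± 0.10, limma adjusted p = 0.541). The log2 differences of Entpd5 (0.63), Fetub (0.65) and Rab15 (0.46) were below the median of those targets, and the differences of Pir, Fbxo2 and Osgin1 were above it.

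Genes beside the 6 on their chromosomes were compared because the mice are of mixed background. The 5 nearest measured genes on either side, by RefSeq gene order (GRCm38.p6), gave 60 neighbours with a median log2 difference of 0.03, of which 1 was called. For Pir, Osgin1, Entpd5, Fbxo2 and Fetub the 10 neighbours each lay between -0.22 and 0.18. The smallest p among them belonged to Bmx beside Pir (-0.19), Dnaaf1 beside Osgin1 (0.14), Gm31513 beside Entpd5 (0.17), Angptl7 beside Fbxo2 (-0.22) and Kng1 beside Fetub (-0.19), with limma adjusted p from 0.532 to 0.648.

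The called neighbour was Gpx2, which encodes the glutathione peroxidase of epithelia and lies directly next to Rab15 on chromosome 12. The annotation places both on the minus strand with 0 genes between them. Gpx2 measured 101.6, 102.5 and 99.1 on control arrays 1 to 3 and 1320, 1422 and 1241 on caNrf2 arrays 1 to 3. Its log2 difference was 3.71 ± 0.08 (SE, n = 3 per group, limma adjusted p = 1.78e-09). Both genes were highest on array 2 and lowest on array 3 in either group. Once group means were subtracted, the deviations of Rab15 and Gpx2 had a Pearson r of 0.989 over the 6 arrays, a description of few points that share arrays and normalisation. The other 9 neighbours of Rab15 lay between -0.20 and 0.20, including Fntb on its far side at 0.09 ± 0.09. Whether transcripts or probes of the adjacent genes are shared was not tested.

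**Figure D4:**
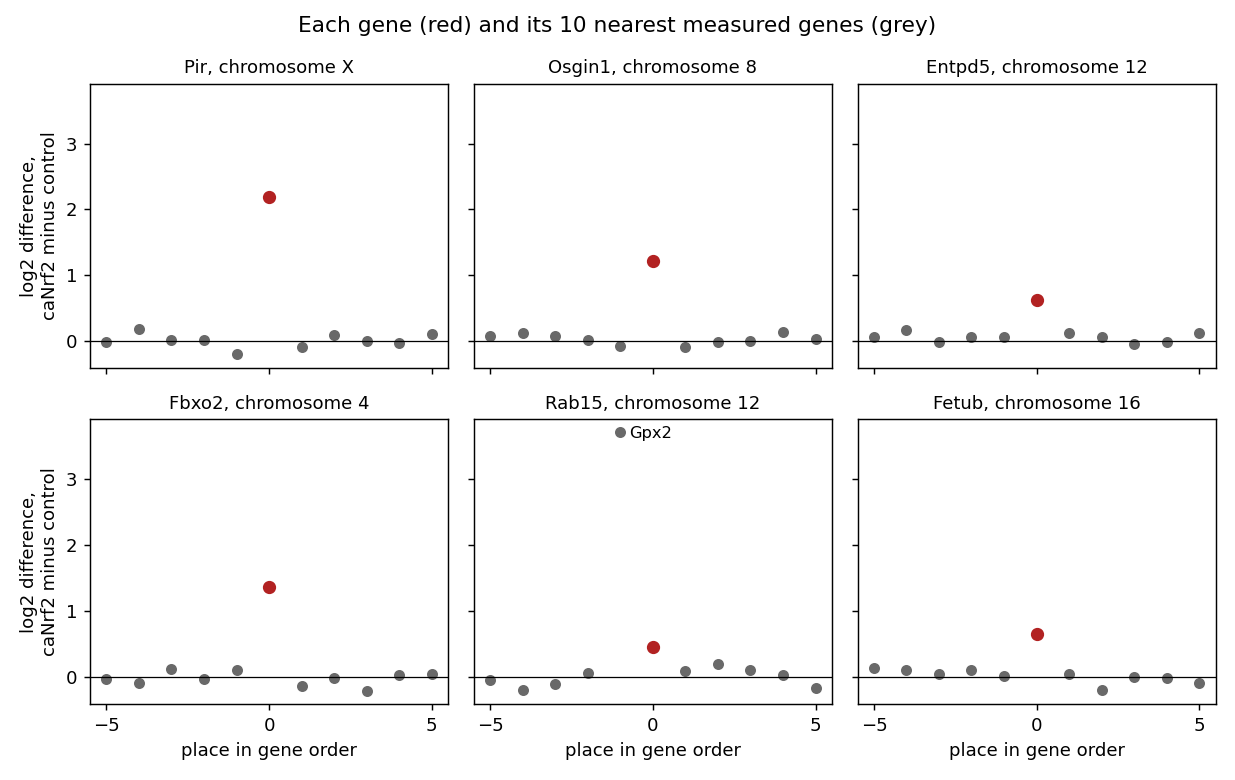
Log2 difference, caNrf2 minus control, of each of the 6 genes (red, place 0) and of the 5 nearest measured genes on either side (grey) in gene order. Gpx2 at 3.71, beside Rab15, is the 1 grey point that was called; the other 59 lie between -0.22 and 0.20.

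The 6 genes did not vary as one within the groups. Relative to the control mean, they averaged 1.14, 1.15 and 0.96 (log2) on caNrf2 arrays 1 to 3. Array caNrf2 3 was the lowest of its group for 4 of the 6 (Osgin1, Entpd5, Fbxo2 and Rab15) and the highest for none, while Pir was lowest on caNrf2 1 and Fetub on caNrf2 2. After subtraction of group means, the 15 pairs of genes had Pearson r between -0.84 and 0.75 over the 6 arrays, with 10 above 0 and a median of 0.23. Fbxo2 and Rab15 were the most alike (0.75), and Pir ran opposite to Fetub (-0.84) and to Entpd5 (-0.83). These are descriptions over 6 arrays of 2 groups.

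For each gene the most similar other genes were sought by Pearson r over the 6 arrays among 315 probe sets of at least median level and of at least the smallest spread seen in the 6; both groups enter, so the measure favours genes that differ between them. Pir was most like Bicd2 and the glutathione transferase Gsta4 (r = 0.999 for both). Osgin1 was most like malic enzyme Me1 and the inflammatory caspase Casp1 (0.978 for both), Entpd5 like the sulfiredoxin gene Srxn1 (0.992) and the exporter Abcc4 (0.991), and Fbxo2 like Gclc (0.997), the catalytic subunit of glutathione synthesis, and Abcc4 (0.992). Rab15 was most like carbonic anhydrase Car2 (0.995) and Cracdl (0.993), and Fetub like Gstm3 (0.994) and Pgrmc1 (0.994). Gpx2, at 0.965, was not among the highest 2 for Rab15. A likeness of this kind mainly shows tight groups and says nothing of size, since Bicd2 differed 1.43-fold and Pir 4.55-fold.

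Markers of other skin cell types are given once, as the genes were measured in whole tissue. Of 14 marker lists, the sebocyte markers were the 1 list whose summed intensity did not overlap between groups. The sums were 2405 to 2597 on control and 1730 to 2298 on caNrf2 arrays. Nothing is read from 1 list in 14. Of all single probe sets 6.9% separated upward. The share that separated downward, as this sum did, is not given here, nor is a share for sums of several genes. Scd3, a desaturase of sebaceous glands, was its 1 called gene (-0.81 ± 0.13, limma adjusted p = 0.0331). The other Scd3 probe set was not called (-0.71 ± 0.13, limma adjusted p = 0.0861). Mc5r, at 0.01, was the 1 of its 5 measured genes above 0. The lower sebocyte sum is opposite in direction to the 6 genes, and its part in their differences was not tested. Neuron markers, listed because Fbxo2 and Rab15 are abundant in the nervous system, summed to 609 to 631 on control and 590 to 657 on caNrf2 arrays, and 3 of the 8 (Snap25, Nefl and Nefm) were at the level of the Y-linked genes.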

How the data were processed

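Total RNA from whole back skin was labelled with biotin and hybridised, 1 array per mouse, from 2 µg of RNA per the labels' protocols. The deposited table holds linear intensities, 1 value for each probe set of an array. Per the submitters' processing notes, the authors made them with RMA (background correction, quantile normalisation, summary of probes), whose version is not given in the sources used here. Such values hide shifts shared by most genes and compress folds of dim ones. Intensities were converted to log2, and 64 Affymetrix control probe sets were left out, leaving 45037. The annotation names 1 gene for 34945 of these, and symbols were checked against RefSeq gene identifiers (34741 matched, 0 changed).

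The 3 caNrf2 arrays were set against the 3 control arrays by limma (version 3.58.1, under R 4.3.3; lmFit, eBayes, no covariate), with Benjamini-Hochberg adjustment over all probe sets and a threshold of 0.05; the fit was also tested on simulated data. SE and 95% intervals come from this fit. Replicates are separate animals, whose number limits the precision. List medians use the brightest probe set of a gene. Entpd4, Kng2 and Nfkb1 were listed but not analysed here.

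The 6 genes, the lists and the tests were chosen with earlier results of these data known. Genes named besides the 6 followed a rule: in each list the called genes or those with the smallest p (up to 2), for neighbours the called or smallest p, and the 2 most alike per gene. Fntb and the marker genes Alb, Fga, Ttr, Scd3, Mc5r, Snap25, Nefl and Nefm, and Ahsg, Astl and Hmox1, were named after their values were seen. Alternatives were a replicate block, median centring, quantile and cyclic loess normalisation, a filter on low values, an offset of 32, an intensity trend, robust eBayes, array weights, gene-level values and leaving out each array.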

Additional observations from a re-analysis of the deposited data

How the results depend on the processing

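Direction was stable for 10 of the 11 probe sets of the 6 genes under each alternative that gave them a value (15 to 17 of 17, since gene-level fits give 1 value per gene and the filter on low values drops Fbxo2 and Fetub). In these 10 every caNrf2 array was above every control array, so leaving out 1 array could not reverse the direction. The dim Entpd5 probe set 1458677_at changed sign with array weights (-0.017), and ranged from -0.022, without caNrf2 array 1, to 0.15 when 1 array was left out. Of 174 recomputed differences, 167 moved by less than 1 SD between replicates and 5 by more: with an offset of 32, Pir fell to 1.87, Osgin1 to 0.99, Fbxo2 to 0.85 and Fetub to 0.32, and with the mean of its probe sets Entpd5 was 0.49. The replicate block, intensity trend, robust eBayes, filter on low values and brightest probe set leave a difference unchanged by construction. The mean of probe sets does so for genes with 1 probe set. The 167 therefore include many values that could not move. Called probe sets of the 6 genes numbered 8, and 4 to 7 without a single array. Rab15 was called in none of the 6 fits that leave out 1 array, but was called with an intensity trend, with the filter on low values and in both gene-level fits. Over all probe sets, 61 to 111 were higher and 1 to 25 lower when 1 array was left out; gene-level fits called 63 higher (brightest probe set), and 60 higher and 3 lower (mean). Lower calls were 2 with the offset, 14 with the trend and 15 with array weights. The relatives, partners and pathways gave 0 calls under all 17 alternatives. The number tested differs among these alternatives. Higher calls were 147 of 45037 probe sets with the intensity trend, the largest count, and 124 of 22519 with the filter on low values. With the brightest probe set per gene they were 63 of 18193. In lists of this size 0 is near such shares too. The cause of these changes was not tested. Same-numbered arrays did not deviate together (r = -0.15, -0.04 and 0.04), so the numbers are not taken to pair the mice; with the replicate block 91 were higher and 6 lower, and 6 of the 11 probe sets were called.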
